A study of Mus musculus with 12 samples.

Results

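The 34 genes described here activate fatty acids and carry them through β-oxidation. They are acyl-CoA synthetases, the carnitine shuttle, the mitochondrial and peroxisomal enzymes of β-oxidation and the nuclear receptor gene Ppard. They were chosen by gene symbol as a fixed list, not by their values. All 34 were among the 17955 genes of the deposited table, and all 34 were among the 12903 genes with enough counts to be tested.

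A fatty acid is first joined to coenzyme A by an acyl-CoA synthetase. Long chains then enter mitochondria as carnitine esters, made by carnitine palmitoyltransferase 1 on the outer membrane and turned back into acyl-CoA by carnitine palmitoyltransferase 2 inside. Each round of β-oxidation removes a pair of carbons as acetyl-CoA and passes electrons to the respiratory chain, and peroxisomes run a related pathway for very long and branched chains. Regulatory T cells (Tregs), the CD4+ T cells that restrain immune responses, are known to draw on fatty acid oxidation for energy.

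RNA was sequenced from CD4+CD25+YFP+ Tregs sorted from spleen and lymph node of C57BL/6 mice aged 7 weeks. All mice carried a Cre recombinase with a yellow fluorescent protein, expressed from Foxp3, the lineage gene of Tregs, so that deletion and sorting both depended on Foxp3 expression. The wild type (WT) mice had Foxp3YFP-cre with TKT+/+, and the knockout (cKO) mice had Foxp3YFP-cre with TKTfl/fl, which removes the transketolase gene Tkt from Tregs. Transketolase moves carbon units between sugar phosphates in the pentose phosphate pathway. Mice of each genotype received vehicle or DMαKG, dimethyl α-ketoglutarate, a cell-permeable form of α-ketoglutarate, in their drinking water from gestation until adulthood, at a dose that was not stated in the labels used. This gave 4 groups of 3 mice, with replicates numbered 2, 3 and 4 with vehicle and 1, 2 and 3 with DMαKG.

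Libraries held 15700000 to 18900000 estimated counts. Tkt stood at 102 to 194 CPM in WT libraries and at 26.2 to 41.8 CPM in cKO libraries, where CPM is the count scaled to a common library size after TMM normalization. The labelled cell type was checked on Foxp3 (279.5 to 545 CPM), Il2ra (467 to 776 CPM) and Cd4 (644 to 864 CPM), all abundant in every library. All 3 were at their lowest in cKO DMαKG replicate 3, with Il2ra equally low in cKO vehicle replicate 2. The 8 Treg markers, which include these 3, summed to 7013 CPM in cKO DMαKG replicate 3 and to at most 6553 CPM elsewhere. On the first principal component, with 29.0% of the variance, cKO DMαKG replicate 3 stood apart at the high end, and the low end held WT DMαKG replicate 3 and replicate 4 of both vehicle groups. The Y-linked gene Ddx3y was below 1 CPM in cKO DMαKG replicates 1 and 3 and in replicate 3 of WT vehicle. WT DMαKG replicate 2 had 22.6 CPM and the others 109 to 241 CPM, among them all 3 cKO vehicle libraries (156 to 219 CPM). Y-linked expression was thus unbalanced between vehicle and DMαKG in cKO mice. Markers of macrophages and monocytes summed to 191 to 314 CPM in WT vehicle, 142 to 222 CPM in cKO vehicle, 155 to 304 CPM in WT DMαKG and 170.4 to 337 CPM in cKO DMαKG libraries, and 0 of these 13 markers was at 0 in every library. Markers of neutrophils summed to 27.0 CPM in cKO DMαKG replicate 3 and to at most 4.02 CPM in any other library, and those of B cells to 45.1 CPM there and at most 26.2 CPM elsewhere.

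Most of the pathway was expressed at moderate levels in WT Tregs given vehicle. The median member stood at 43.5 TPM (transcript abundance scaled by transcript length), against 23.4 TPM for all genes tested. Of the 34 members, 5 were above 100 TPM, 22 between 10 and 100 TPM and 7 at or below 10 TPM.

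The highest level belonged to Hadha, the α subunit of the mitochondrial trifunctional protein, at 150.3 ± 11.7 TPM (SD, n = 3). Next came Acsl5, an acyl-CoA synthetase, at 125 ± 6.64 TPM, and Hadhb, the β subunit, at 123 ± 14.2 TPM, which did not differ beyond their spread. Hsd17b10 and Etfb were the other members above 100 TPM. Cpt1a, the liver-type carnitine palmitoyltransferase 1 and the rate-controlling step of mitochondrial entry, stood at 60.1 ± 18.1 TPM, the widest SD among the members. Cpt2 was lower, at 9.76 ± 1.69 TPM, and Cpt1c, the brain isoform, was close to absent at 0.230 ± 0.125 TPM.

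**Figure D1:**
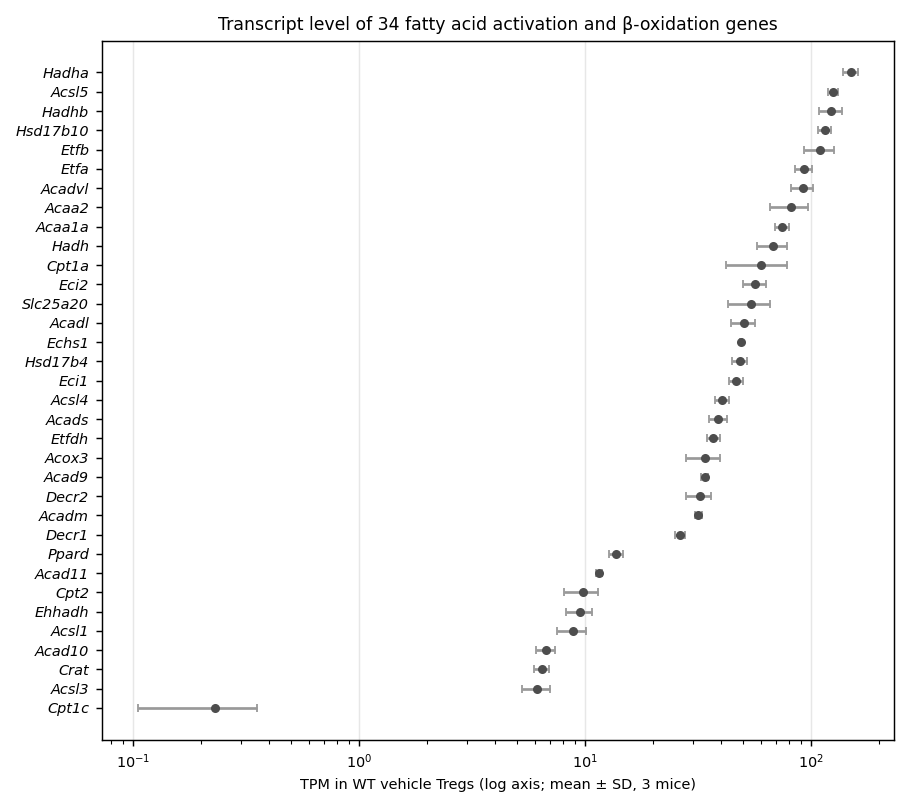
Mean TPM on a log axis for each of the 34 members in WT vehicle Tregs, with bars for the SD over 3 mice. Hadha is highest at 150.3 TPM, and Cpt1c, at 0.230 TPM, lies far below the other 33.

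No member passed the test in any comparison. The edgeR quasi-likelihood test, adjusted over all 12903 genes at a threshold of 0.05, called 0 of 34 members in each of the 4 pairwise comparisons and in the interaction of genotype and DMαKG. DESeq2's Wald test and limma voom with sample quality weights also called 0 members in each. The shares of all genes called by edgeR were 0.0620% in cKO against WT with vehicle, 0% in DMαKG against vehicle in either genotype, 0.186% in cKO against WT with DMαKG and 0% in the interaction, so few or no calls were available to set the members against. DESeq2 called 0.775%, 0.0155%, 2.98%, 1.11% and 0.00775% of all genes in the same order, and voom 1.90%, 0.0620%, 3.49%, 1.84% and 0.00775%. By direction, edgeR called 0.0233% of genes higher and 0.0388% lower in cKO against WT with vehicle, and 0.163% higher and 0.0233% lower in cKO against WT with DMαKG. The fold changes below are therefore given as values with their intervals.

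**Figure D2:**
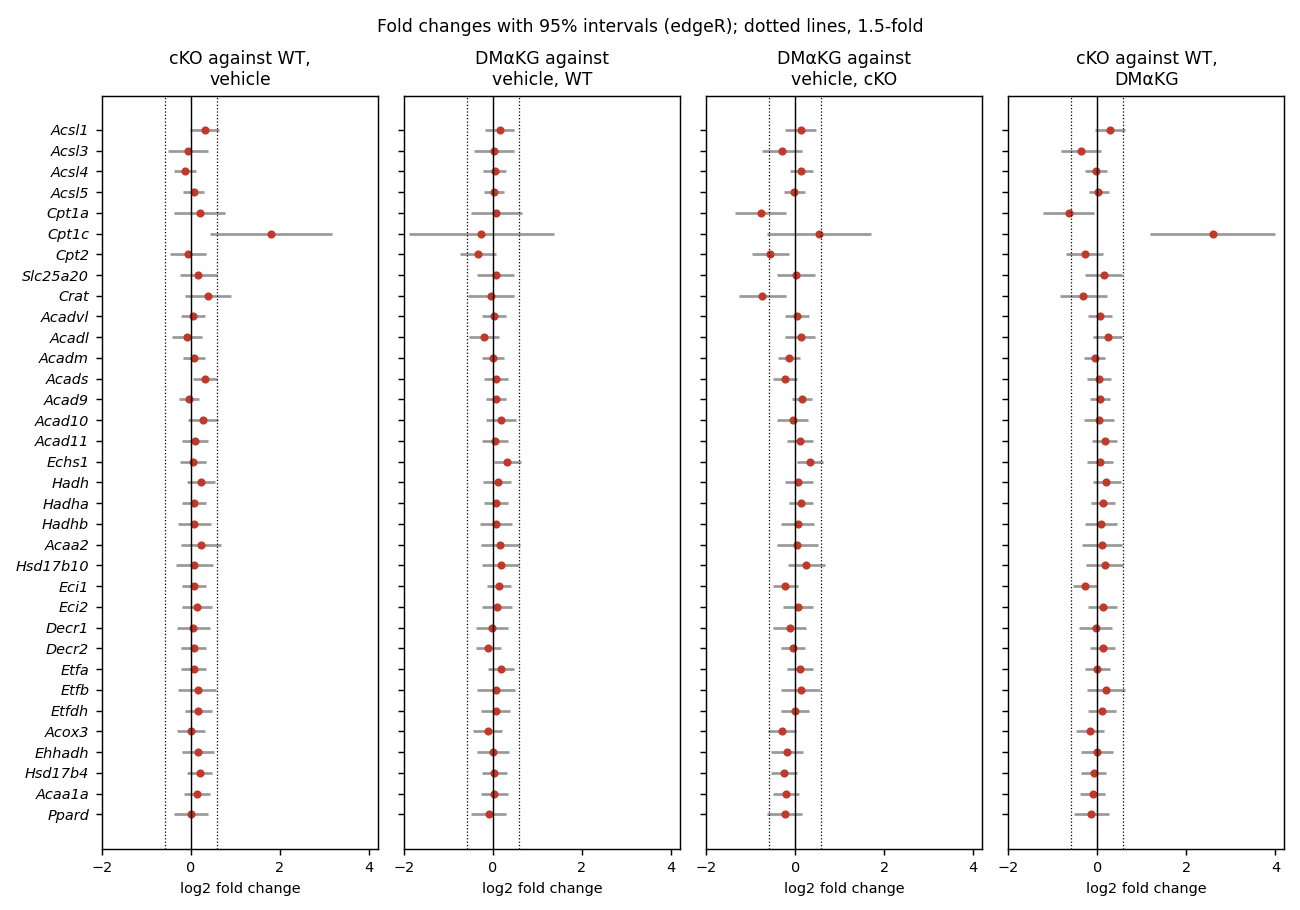
Log2 fold change of each member in the 4 pairwise comparisons, with lines for the 95% interval of the edgeR fit and dotted lines at a change of 1.5-fold. Most intervals lie inside the dotted lines, and Cpt1a, Cpt2 and Crat lie to the left in DMαKG against vehicle in cKO.

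The carnitine shuttle held the widest differences. Cpt1a (chromosome 19, 3322326 to 3385735, GRCm38.p6) had 107, 79.3 and 144 CPM in WT vehicle libraries, given here and below in order of replicate number, and 96.9, 132 and 149 CPM in cKO vehicle libraries. Under DMαKG, WT libraries had 109, 140.0 and 96.9 CPM and cKO libraries 95.9, 74.9 and 50 CPM. RNA from sorted bulk cells cannot tell fewer cells with a transcript from less of it per cell. All 3 cKO libraries with DMαKG were thus below every cKO vehicle library and every WT DMαKG library, while they overlapped the WT vehicle group. The log2 fold change was -0.78 (SE 0.26, 95% interval -1.35 to -0.20, edgeR adjusted p = 0.200) for DMαKG against vehicle in cKO. For cKO against WT with DMαKG it was -0.65 (SE 0.26, interval -1.22 to -0.08, adjusted p = 0.413).

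In WT mice the Cpt1a difference between DMαKG and vehicle was 0.07 (interval -0.50 to 0.64), and between genotypes with vehicle it was 0.20 (interval -0.37 to 0.77). The latter ran from 0.01 without WT vehicle replicate 3 to 0.44 without WT vehicle replicate 4. The interaction was -0.85 (SE 0.37, interval -1.65 to -0.04, edgeR adjusted p = 0.955). The lowest library, cKO DMαKG replicate 3, is the one that stood apart on the first component and carried the most neutrophil and B cell transcripts. It also had the highest marker sums for macrophages and monocytes (337 CPM, at most 314 CPM elsewhere) and dendritic cells (262 and 258 CPM). The same held for CD8 T and NK cells (37.8 and 34.1 CPM), but not for erythroid cells (12.5 CPM there, up to 25.1 CPM elsewhere). Without this library the log2 fold change for DMαKG against vehicle in cKO was -0.56 (edgeR adjusted p = 0.452), that for cKO against WT with DMαKG was -0.43 and the interaction was -0.63. The part of these markers in the Cpt1a values was not tested.

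Cpt2 and Crat stood beside Cpt1a as the 3 members with the smallest p in DMαKG against vehicle in cKO, though none passed the test. All 3 encode carnitine acyltransferases. Cpt1c, of the same family but at very low counts, went the other way, with a log2 fold change of 0.53 (interval -0.64 to 1.71). An unadjusted p under 0.05 was reached by 11.8% of members in this comparison, against 17.3% of all genes. Cpt2 (chromosome 4, 107903982 to 107923589) stood at 9.26, 8.29 and 10.3 CPM in cKO vehicle libraries and at 7.19, 5.42 and 6.17 CPM in cKO DMαKG libraries. These groups did not overlap, with a log2 fold change of -0.57 (SE 0.19, interval -0.98 to -0.15, edgeR adjusted p = 0.197). In WT mice Cpt2 stood at 8.41, 9.27 and 11.3 CPM with vehicle and at 7.50, 6.29 and 9.12 CPM with DMαKG, with overlap between the groups and a log2 fold change of -0.34 (interval -0.75 to 0.07).

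Crat encodes carnitine acetyltransferase, which moves acetyl and other short acyl groups between carnitine and coenzyme A. It stood at 14.3, 9.39 and 8.72 CPM in cKO vehicle libraries and at 5.63, 5.94 and 7.82 CPM in cKO DMαKG libraries, again without overlap. The log2 fold change was -0.74 (SE 0.24, interval -1.27 to -0.21, edgeR adjusted p = 0.192), and it was -0.49 without cKO vehicle replicate 2, the highest library. WT libraries lay at 8.07, 7.94 and 8.86 CPM with vehicle and at 5.62, 8.62 and 9.92 CPM with DMαKG, so the groups overlapped. The interaction for Crat was -0.70 (interval -1.44 to 0.04). Crat exons share 59 bases with Dolpp1 and 137 bases with an antisense transcript. Whether counting used strand was not stated in the labels used, and values of members with such overlaps are uncertain to that extent.

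The RefSeq promoters of Cpt1a and Cpt2 are shown because these genes were low together in cKO mice given DMαKG. Each sequence is the part of the 250 bases before a RefSeq start site, on the gene's own strand, that lies outside exons of GENCODE M21, with capitals for the nuclear receptor half-site AGGTCA and the GC box GGGCGG on either strand. The Cpt1a sequence lies at chr19:3323051-3323284 on the plus strand and the Cpt2 sequence at chr4:107923611-107923839 on the minus strand of GRCm38.p6. The Cpt1a start site used, 3323301, lies within the gene's span given above, which begins further upstream.
Cpt1a: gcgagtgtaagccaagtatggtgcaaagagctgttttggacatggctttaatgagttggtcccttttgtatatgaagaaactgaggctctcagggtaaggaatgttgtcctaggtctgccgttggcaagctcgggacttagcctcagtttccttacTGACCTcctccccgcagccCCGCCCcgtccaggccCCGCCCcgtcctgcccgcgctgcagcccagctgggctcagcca
Cpt2: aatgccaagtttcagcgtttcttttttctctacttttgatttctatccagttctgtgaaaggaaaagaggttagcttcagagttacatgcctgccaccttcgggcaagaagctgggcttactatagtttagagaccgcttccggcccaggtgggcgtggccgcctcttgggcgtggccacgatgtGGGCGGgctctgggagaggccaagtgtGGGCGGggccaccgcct
The Cpt1a sequence held 1 half-site and 2 GC boxes, and the Cpt2 sequence 0 half-sites and 2 GC boxes. Promoters from 250 bases before to 50 after the start site were given for 29 members. The half-site was in 5 of these 29 (17.2%), against 16.4% of 14206 genes of the table with a promoter, and the GC box was in 24 (82.8%), against 58.1%. The direct repeat AGGTCANAGGTCA (both strands searched), which the peroxisome proliferator-activated receptors are known to bind, and the extended half-site TCAAGGTCA each contain a half-site, and both were in 0 of the 29, against 0.0493% and 0.394% of all genes. These are matches of letters and not measured sites.

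Slc25a20, the carrier that exchanges acylcarnitine for carnitine across the inner mitochondrial membrane, did not share the pattern of Cpt1a, Cpt2 and Crat. It stood at 40.9, 30.9 and 47.4 CPM in WT vehicle, 37.5, 44.4 and 52.7 CPM in cKO vehicle, 42.7, 43.7 and 37.6 CPM in WT DMαKG and 45.6, 34.9 and 56.0 CPM in cKO DMαKG libraries. All 4 groups overlapped one another.

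Cpt1c was the member with the smallest p in both comparisons of genotype, at very low counts. Its estimated counts were 2, 7 and 6 in WT vehicle, 32, 9 and 13 in cKO vehicle, 8, 3 and 1 in WT DMαKG and 18, 26 and 24 in cKO DMαKG libraries. In CPM these were 0.113, 0.389 and 0.315, then 1.73, 0.494 and 0.670, then 0.469, 0.170 and 0.0534, then 1.17, 1.5 and 1.53. Each cKO library was above each WT library of the same treatment. The log2 fold change was 1.79 (SE 0.64, interval 0.42 to 3.17, edgeR adjusted p = 0.511) with vehicle and 2.59 (SE 0.65, interval 1.19 to 3.99, adjusted p = 0.167) with DMαKG. The vehicle value was 1.08 without cKO vehicle replicate 2, and the DMαKG value was 3.60 without WT DMαKG replicate 1. DESeq2's Wald test gave the DMαKG comparison an adjusted p of 0.0524, the smallest for any member under any setting. Cpt1c passed the expression filter through the cKO libraries where it was high, so its presence among the tested genes is not independent of this difference, and its exons overlap an antisense transcript by up to 114 bases.

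**Figure D3:**
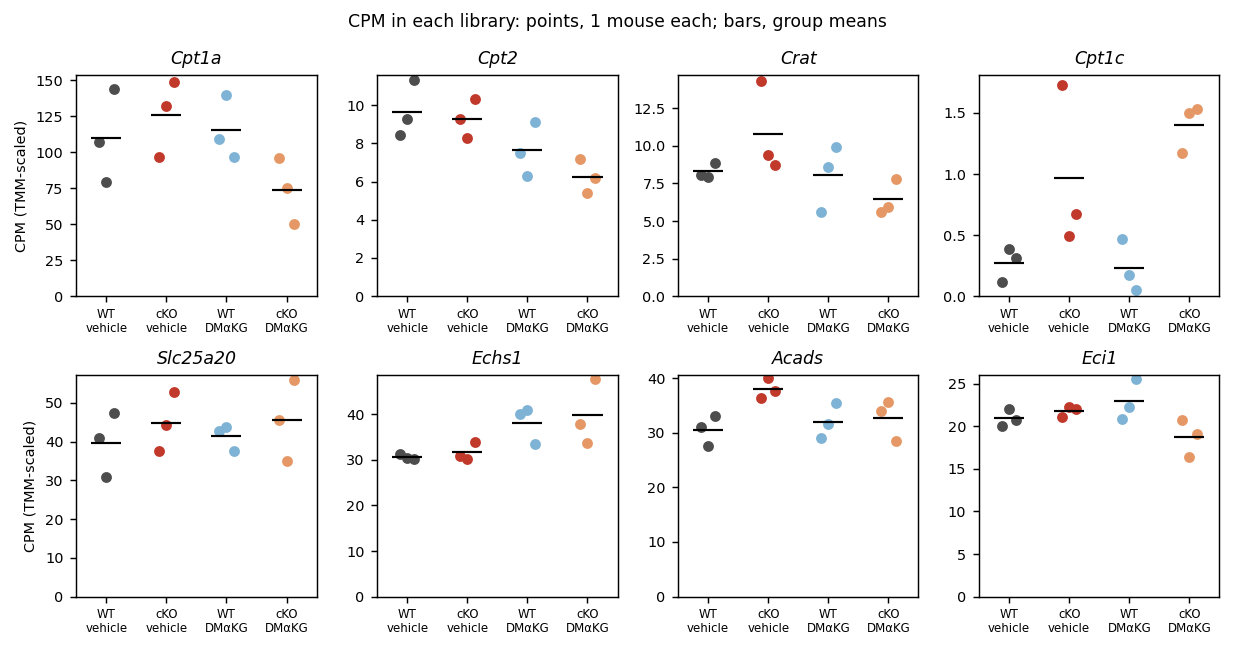
CPM of 8 members in each of the 12 libraries, 1 point per mouse with a bar for the group mean, on axes that start at 0. Cpt1a, Cpt2 and Crat are lower in all 3 cKO DMαKG libraries than in all 3 cKO vehicle libraries, Cpt1c is higher in cKO than in WT within each treatment, and Slc25a20 overlaps in all groups.

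The acyl-CoA synthetases trap fatty acids in the cell as acyl-CoA. Over the 12 libraries the SD was 6.57% of the mean for Acsl5 and 9.04% for Acsl4. It was larger for Acsl1 (15.6%) and Acsl3 (18.6%). Acsl5 stood at 147, 144 and 159.5 CPM in WT vehicle, 139.7, 157 and 174 CPM in cKO vehicle, 147, 152 and 158 CPM in WT DMαKG and 167, 146 and 151 CPM in cKO DMαKG libraries, with overlap of every group. Acsl4, which favours arachidonic acid and other polyunsaturated fatty acids, stood at 85.5, 84.7 and 92.8 CPM in WT vehicle and at 72.9, 75.4 and 91.6 CPM in cKO vehicle libraries (log2 fold change -0.13, interval -0.39 to 0.12). Under DMαKG its libraries lay at 86.0, 91.3 and 92.4 CPM in WT and at 84.1, 79.5 and 99.9 CPM in cKO libraries. The 4 groups of Acsl4 overlapped, and this X-linked gene had the lowest fold change of the members in cKO against WT with vehicle.

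Acsl1, the main synthetase of adipose tissue, heart and liver, stood at 13.4, 16.5 and 12.7 CPM in WT vehicle and at 16.5, 19.2 and 17.0 CPM in cKO vehicle libraries. Under DMαKG its libraries stood at 15.6, 17.5 and 14.1 CPM in WT and at 20.4, 20.9 and 15.9 CPM in cKO libraries. The genotype groups overlapped within each treatment, and with vehicle the log2 fold change was 0.31 (SE 0.16, interval -0.03 to 0.64, edgeR adjusted p = 0.746). Acsl3, a synthetase of the endoplasmic reticulum and lipid droplets, had group means of 9.98 ± 1.70, 9.52 ± 2.22, 10.1 ± 1.63 and 7.80 ± 1.06 CPM (SD, n = 3) in WT vehicle, cKO vehicle, WT DMαKG and cKO DMαKG, in that order. For cKO against WT with DMαKG its log2 fold change was -0.38 (SE 0.21, interval -0.83 to 0.08, edgeR adjusted p = 0.557). Exons of Acsl5 overlap those of Zdhhc6 on the opposite strand by up to 167 bases. Exons of Acsl3 overlap those of Utp14b by up to 140 bases on the same strand, so strand would not separate them. Acsl1 exons overlap a transcript of the opposite strand by up to 1039 bases.

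The acyl-CoA dehydrogenases take the first electrons from acyl-CoA, and members differ in the chain length they prefer. Acadvl, for very long chains, stood at 78.0, 82.2 and 93.4 CPM in WT vehicle and at 73.6, 89.2 and 98.2 CPM in cKO vehicle libraries. Under DMαKG its libraries stood at 87.1, 86.7 and 83.0 CPM in WT and at 96.4, 79.0 and 92.0 CPM in cKO libraries, so that its groups overlapped throughout. Acadm, for medium chains, ranged from 24.9 to 31.2 CPM over all 12 libraries. It was 29.6, 26.5 and 26.5 CPM in WT vehicle, 28.0, 27.5 and 31.2 CPM in cKO vehicle, 29.7, 26.3 and 26.6 CPM in WT DMαKG and 25.2, 24.9 and 28.9 CPM in cKO DMαKG. Its highest library was 1.25 times its lowest, a spread matched only by Acsl5 at 1.25 times.

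Acads, for short chains, was the dehydrogenase that differed most between genotypes with vehicle. It stood at 31.1, 27.5 and 33.0 CPM in WT libraries and at 36.3, 40.0 and 37.7 CPM in cKO libraries, without overlap. The log2 fold change was 0.32 (SE 0.12, interval 0.04 to 0.59, edgeR adjusted p = 0.585). Under DMαKG it was 29.1, 31.7 and 35.4 CPM in WT and 34, 35.7 and 28.5 CPM in cKO, where the groups overlapped.

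The remaining dehydrogenases were Acadl for long chains, Acad9, which also helps to assemble respiratory complex I, and Acad10 and Acad11. Group means ran from 35.8 to 42.0 CPM for Acadl, from 55.1 to 61.3 CPM for Acad9, from 10.1 to 12.2 CPM for Acad10 and from 16.3 to 18.8 CPM for Acad11. Acad10 and Acad11 did not overlap between genotypes with vehicle, their cKO means of 12.2 and 17.5 CPM lying above WT means of 10.1 and 16.3 CPM. Their log2 fold changes were 0.27 (interval -0.07 to 0.61) and 0.10 (interval -0.19 to 0.38). For Acad11 the highest WT library had 16.6 CPM and the lowest cKO library 16.7 CPM. Of all genes, 8.29% were higher without overlap in this comparison. Acadvl overlaps Dvl2 in exons by up to 377 bases, and Acad11 overlaps Ackr4 by up to 352 bases. Acad9 overlaps a transcript of its own strand by up to 525 bases.

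The hydratase, dehydrogenase and thiolase steps complete each round. Echs1, the short-chain enoyl-CoA hydratase, had the smallest p of the members in DMαKG against vehicle in WT. It stood at 31.3, 30.4 and 30.1 CPM in WT vehicle and at 40.1, 41.0 and 33.5 CPM in WT DMαKG libraries, without overlap (log2 fold change 0.32, SE 0.14, interval 0.02 to 0.62, edgeR adjusted p = 0.999). In cKO mice it stood at 30.8, 30.3 and 34 CPM with vehicle and at 37.8, 33.7 and 47.8 CPM with DMαKG, where the groups overlapped in 1 library of each. Exons of Echs1 overlap those of Paox on the opposite strand by up to 142 bases. Its upstream sequence outside exons (chr7:140116477-140116671, minus strand, GRCm38.p6) is shown with the same capitals because it was the member with the smallest p in WT mice.
Echs1: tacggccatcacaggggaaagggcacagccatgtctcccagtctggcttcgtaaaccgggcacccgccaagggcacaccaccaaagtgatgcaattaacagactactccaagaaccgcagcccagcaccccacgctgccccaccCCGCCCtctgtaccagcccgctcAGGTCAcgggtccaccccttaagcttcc
This sequence held 1 half-site and 1 GC box.

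Hadha and Hadhb encode the 2 subunits of the trifunctional protein, which carries out the last 3 steps on long chains. They lie head to head on chromosome 5, with 272 bases between their start sites (30154980 for Hadha on the minus strand and 30155253 for Hadhb on the plus strand). The sequence between them that lies outside exons (chr5:30155163-30155247, plus strand) is shown because it precedes both genes.
Hadhb: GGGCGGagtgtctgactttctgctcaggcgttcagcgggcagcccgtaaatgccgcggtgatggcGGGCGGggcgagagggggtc
It held 0 half-sites and 2 GC boxes. Hadha stood at 179, 157 and 183 CPM in WT vehicle, 157, 188 and 198 CPM in cKO vehicle, 187, 182 and 173 CPM in WT DMαKG and 207, 166 and 218 CPM in cKO DMαKG. Hadhb stood at 102, 98.3 and 118 CPM in WT vehicle, 102, 93.6 and 142 CPM in cKO vehicle, 117, 105 and 111 CPM in WT DMαKG and 111, 96.4 and 144 CPM in cKO DMαKG. Both genes were highest in cKO vehicle replicate 4 and cKO DMαKG replicate 3, each within its group, and all groups overlapped.

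The ratio of Hadha to Hadhb in TPM had group means of 1.23 ± 0.0864 in WT vehicle, 1.24 ± 0.242 in cKO vehicle, 1.23 ± 0.0649 in WT DMαKG and 1.28 ± 0.131 in cKO DMαKG (SD, n = 3). Its extremes were both cKO vehicle libraries, 1.51 in replicate 3 and 1.05 in replicate 4. For the 2 subunits of the electron transfer flavoprotein, the ratio of Etfa to Etfb had group means from 0.802 to 0.907. The group means of either ratio differed by less than the largest SD within a group.

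Of the other genes of these steps, Hadh, the short-chain 3-hydroxyacyl-CoA dehydrogenase, had means of 50.8 ± 6.80, 59.6 ± 12.8, 54.3 ± 0.207 and 62.6 ± 3.44 CPM in WT vehicle, cKO vehicle, WT DMαKG and cKO DMαKG (SD, n = 3). Its genotype groups did not overlap with DMαKG. Acaa2, a mitochondrial thiolase, had means from 50.9 to 61.2 CPM and Hsd17b10, an X-linked dehydrogenase of short and branched chains, means from 42.6 to 53.5 CPM. All 6 members of these steps had a fold change above 0 in each of the 4 pairwise comparisons, within a range of 0.05 to 0.33 on the log2 scale. Comparisons with a group in common share its libraries, so these signs are not separate observations.

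Eci1, Eci2, Decr1 and Decr2 handle the double bonds of unsaturated fatty acids, Decr2 in peroxisomes. Eci1, a mitochondrial enoyl-CoA isomerase, stood at 20.1, 22.0 and 20.8 CPM in WT vehicle, 21.1, 22.3 and 22.0 CPM in cKO vehicle, 20.9, 22.3 and 25.6 CPM in WT DMαKG and 20.8, 16.4 and 19.1 CPM in cKO DMαKG libraries. The cKO DMαKG libraries were below all cKO vehicle libraries and all WT DMαKG libraries, by a small margin in each case. For cKO against WT with DMαKG the log2 fold change was -0.29 (SE 0.13, interval -0.56 to -0.01, edgeR adjusted p = 0.445), and the interaction was -0.35 (interval -0.73 to 0.04). Group means ran from 39.2 to 45.3 CPM for Eci2, from 30.2 to 32.8 CPM for Decr1 and from 25.8 to 29.0 CPM for Decr2.

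Etfa, Etfb and Etfdh pass the electrons of the acyl-CoA dehydrogenases to ubiquinone. Etfa stood at 56.7, 52.0 and 61.4 CPM in WT vehicle, 53.0, 57.1 and 67.6 CPM in cKO vehicle, 69.7, 64.0 and 58.4 CPM in WT DMαKG and 67.5, 54.5 and 69.9 CPM in cKO DMαKG libraries. All its groups overlapped, and DMαKG against vehicle in WT had a log2 fold change of 0.18 (interval -0.11 to 0.46). Etfb and Etfdh had group means from 40.5 to 48.8 CPM and from 35.6 to 40.1 CPM. Etfdh exons overlap those of 4930579G24Rik on the opposite strand by up to 278 bases.

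The 4 enzymes of the peroxisomal pathway are Acox3, an oxidase of branched chains, Ehhadh and Hsd17b4, which combine hydratase and dehydrogenase activities, and the thiolase Acaa1a. Acox3 had means of 57.0 ± 9.01, 57.3 ± 3.11, 52.3 ± 7.35 and 46.5 ± 6.07 CPM in WT vehicle, cKO vehicle, WT DMαKG and cKO DMαKG (SD, n = 3). Its cKO DMαKG libraries lay below its cKO vehicle libraries without overlap. Group means ran from 11.8 to 13.3 CPM for Ehhadh, from 52.7 to 62.8 CPM for Hsd17b4 and from 51.6 to 59.6 CPM for Acaa1a. All 4 had a fold change above 0 for cKO against WT with vehicle (0.01 to 0.20 on the log2 scale). All 4 were below 0 for DMαKG against vehicle in cKO (-0.30 to -0.18), with 0 passing in either. Both comparisons use the cKO vehicle libraries, on opposite sides, so these opposite signs are not separate observations. Acaa1a is uncertain, since it has a close paralog, Acaa1b, and shares up to 223 exonic bases with Myd88. Acox3 exons overlap an antisense transcript by up to 473 bases.

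Ppard encodes PPARδ, a nuclear receptor that fatty acids activate and that is known to raise genes of fatty acid oxidation. It stood at 17.7, 19.4 and 18.7 CPM in WT vehicle, 19.7, 20.5 and 15.8 CPM in cKO vehicle, 15.8, 16 and 20.3 CPM in WT DMαKG and 16.4, 19.2 and 11.9 CPM in cKO DMαKG libraries. The lowest library was cKO DMαKG replicate 3, as for Cpt1a, and all groups overlapped.

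Across the whole list, cKO against WT with vehicle gave fold changes above 0 for 29 of 34 members (85.3%, against 51.6% of all genes tested), with a median log2 fold change of 0.08, against 0.007 over all genes. An unadjusted p under 0.05 was reached by 2 members (5.88%), against 7.29% of all genes. The groups were higher without overlap for 4 members, Cpt1c, Acads, Acad10 and Acad11 (11.8%, against 8.29%), and lower for 0 (against 7.01%). Without Cpt1c, whose passing of the filter depended on this difference, 28 of 33 were above 0 (84.8%), 1 had an unadjusted p under 0.05 (3.03%) and 3 were higher without overlap (9.09%). The 95% interval lay within 1.5-fold in both directions for 26 of the 34 members. The median was 0.03 without cKO vehicle replicate 4 and 0.14 without WT vehicle replicate 4. All 13 macrophage and monocyte markers had a lower mean in cKO in the same comparison, as did 10 of 12 dendritic cell markers. So did 7 of 8 erythroid, 6 of 8 B cell and 5 of 8 CD8 T and NK cell markers. A higher mean was seen for 4 of 6 neutrophil markers. The part of these markers in the values above was not tested.

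DMαKG against vehicle in WT gave 24 of 34 members above 0 (70.6%, against 49.8% of all genes), with a median log2 fold change of 0.05 against -0.001. An unadjusted p under 0.05 was reached by 1 member, Echs1 (2.94%, against 2.73%), which was also the 1 member with non-overlapping groups (2.94% higher, against 4.59%). The groups were lower without overlap for 0 members, against 3.86%, and 8.45% of all genes did not overlap in either direction. For 29 members the 95% interval lay within 1.5-fold, the most of any comparison. The median was 0.00 without WT vehicle replicate 3. Means with DMαKG were lower for 12 of 12 dendritic cell markers and 8 of 8 CD8 T and NK cell markers. They were also lower for 11 of 13 macrophage and monocyte markers and 7 of 8 erythroid markers, and higher for 8 of 8 Treg markers. The part of these markers in the values above was not tested.

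DMαKG against vehicle in cKO split the members evenly, with 17 above 0 (against 50.4% of all genes), 17 below 0 and a median log2 fold change of 0.0051, against 0.004. An unadjusted p under 0.05 was reached by 4 members, Crat, Cpt2, Cpt1a and Echs1 (11.8%), against 17.3% of all genes. The groups were lower without overlap for 6 members, Cpt1a, Cpt2, Crat, Acads, Eci1 and Acox3 (17.6%, against 12.2%), and higher for 0 (against 8.91%). The 95% interval lay within 1.5-fold for 25 members. Means with DMαKG were higher in the same comparison for 10 of 13 macrophage and monocyte markers and 11 of 12 dendritic cell markers. They were also higher for 8 of 8 B cell and 6 of 6 neutrophil markers, and lower for 7 of 8 erythroid markers. The part of these markers in the values above was not tested. When Y-linked expression entered the fit as a covariate, added after seeing that 2 of the 3 cKO DMαKG libraries had Ddx3y below 1 CPM, the log2 fold changes were -0.61 for Cpt1a, -0.52 for Cpt2 and -0.76 for Crat, each with an edgeR adjusted p of 0.988.

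In cKO against WT with DMαKG, 20 members were above 0 (58.8%, against 50% of all genes) and 14 below, with a median log2 fold change of 0.05, against 0.000 over all genes. An unadjusted p under 0.05 was reached by 3 members, Cpt1c, Cpt1a and Eci1 (8.82%, against 10.4%). The groups were higher without overlap for Cpt1c and Hadh (5.88%, against 7.92%) and lower for Cpt1a and Eci1 (5.88%, against 7.04%). Without Cpt1c, 19 of 33 were above 0 (57.6%), 2 had an unadjusted p under 0.05 (6.06%) and 1 was higher without overlap (3.03%). The 95% interval lay within 1.5-fold for 27 members. The median was 0.00 without cKO DMαKG replicate 3 and 0.14 without cKO DMαKG replicate 2. In the same comparison 8 of 8 B cell markers, 7 of 8 CD8 T and NK cell markers and 5 of 6 neutrophil markers had a higher mean in cKO. So did 8 of 13 macrophage and monocyte markers and 6 of 12 dendritic cell markers. A lower mean was seen for 6 of 8 erythroid and 5 of 8 Treg markers. The part of these markers in the values above was not tested.

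The interaction asks whether the DMαKG difference itself differed between genotypes. Of the members 11 were above 0 (32.4%, against 48.7% of all genes) and 23 below, with a median of -0.05, against -0.009 over all genes, and 1, Cpt1a, had an unadjusted p under 0.05 (2.94%, against 3.64%). The intervals of the interaction were wider, and 15 of 34 lay within 1.5-fold.

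The spread between mice of one group ran through many members together. In cKO vehicle, 22 of the 34 members had their highest value in replicate 4, against 40.1% of all genes, and 19 had their lowest in replicate 2, against 33.8%. In WT vehicle, 19 were highest in replicate 4 (against 41.3%) and 18 lowest in replicate 3 (against 33.2%). In cKO DMαKG, 18 were highest in replicate 3 (against 38.9%) and 19 lowest in replicate 2 (against 34.6%). In WT DMαKG no library held more than 14 of the highest values. Over all 12 libraries, cKO vehicle replicate 4 and cKO DMαKG replicate 3 each held the highest value of 11 members, against 12.8% and 20.8% of all genes. That library was also the lowest of 12 for 24.8% of all genes. Among the members, Echs1, Hsd17b10, Acaa2, Hadha, Hadhb, Etfa, Etfb, Slc25a20, Acad9, Acad11 and Acsl4 were at their highest of 12 there, and 5, Cpt1a, Ppard, Acaa1a, Acox3 and Hsd17b4, were at their lowest.

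**Figure D4:**
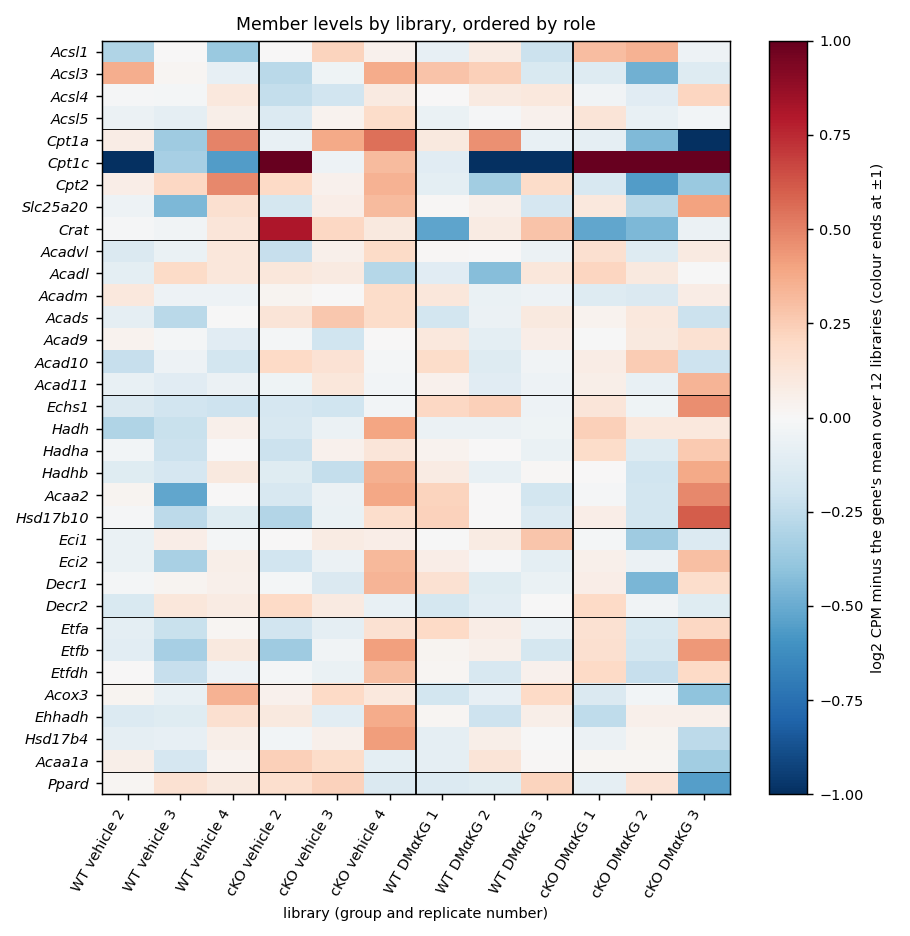
Log2 CPM of each member in each library minus the member's mean over the 12 libraries, with members grouped by role between horizontal lines and groups of mice between vertical lines. Replicate 4 of cKO vehicle is above the mean for most members, and replicate 3 of cKO DMαKG is high for the later mitochondrial steps and low for Cpt1a and Ppard.

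Related genes outside the list were read from 9 gene lists with 99 tested genes, and 0 of these 99 passed in any comparison by the edgeR test. At an unadjusted p under 0.05 there were 3 in cKO against WT with vehicle, 1 in DMαKG against vehicle in WT, 15 in DMαKG against vehicle in cKO, 9 in cKO against WT with DMαKG and 1 in the interaction. These are 3.03%, 1.01%, 15.2%, 9.09% and 1.01% of the 99, each below the share of all genes (7.29%, 2.73%, 17.3%, 10.4% and 3.64%). The 11 tested genes of lipolysis and lipid droplets had a median log2 fold change of -0.25 for DMαKG against vehicle in cKO, with 8 of 11 below 0. Among them Lipe, the hormone-sensitive lipase, stood at 21.4, 21.3 and 17.7 CPM in cKO vehicle and at 14.1, 15.5 and 9.60 CPM in cKO DMαKG libraries (log2 fold change -0.62, SE 0.17, edgeR adjusted p = 0.155). The 14 genes of fatty acid synthesis had a median of -0.11 in that comparison, with 11 below 0. Its medians were -0.17 for 11 genes of uptake and binding, -0.09 for 5 other synthetases, -0.11 for 9 genes of propionyl-CoA and ketone bodies, 0.16 for 10 thioesterases and -0.17 for 4 other known PPAR targets.

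The list of other β- and α-oxidation genes was broad. It also named Acad8, Acadsb, Hibch and Ivd, of branched-chain amino acid breakdown, and Mcat and Mecr, of mitochondrial fatty acid synthesis. Its 20 tested genes had medians of 0.10 in cKO against WT with vehicle and 0.05 in DMαKG against vehicle in WT. The medians were 0.02 in DMαKG against vehicle in cKO and 0.05 in cKO against WT with DMαKG. The 18 regulators had medians of 0.03, 0.05, -0.10 and -0.11 in the same order. Pparg, the adipogenic PPAR, had the smallest p among them, at 3.33, 2.44 and 4.25 CPM in WT vehicle and 0.271, 1.59 and 1.19 CPM in cKO vehicle libraries (log2 fold change -1.71, SE 0.50, edgeR adjusted p = 0.371). These groups did not overlap, at a low level. Bdh1, a mitochondrial enzyme of ketone bodies, stood at 33.9, 42.2 and 49.0 CPM in cKO vehicle and 27.0, 32.0 and 22.4 CPM in cKO DMαKG libraries (log2 fold change -0.62, SE 0.18, adjusted p = 0.158). Acbd3 for uptake and binding, Acss2 for other synthetases, Slc25a17 for other oxidation genes, Acot7 for thioesterases, Acot2 for known PPAR targets and Slc25a1 for synthesis were the genes with the smallest p in their lists, with adjusted p from 0.192 to 0.606.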

How the data were processed

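RNA was measured in 12 libraries, 4 groups of 3 mice. The authors deposited 1 table of 17955 genes with estimated counts, FPKM and TPM. The estimated counts are not normalized per the file headers, and 36% of the deposited values were not whole, so they were rounded. The authors also deposited FPKM, which was not used. The deposited TPM, which sums to the same total in each library, served for levels between genes. Tools named, per the submitters' processing notes and without their roles, were featureCounts 1.5.0-p3, HISAT2 2.0.5 and DESeq2 1.16.1, with the build mm10.

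Low genes were removed with filterByExpr (edgeR 4.0.16 in R 4.3.3) and libraries scaled by TMM and counts fitted with 1 mean per group over all 12 libraries, with robust estimation of the spread. Adjustment was by Benjamini-Hochberg over 12903 genes in each comparison, with a threshold of 0.05. Intervals are 95% intervals of that fit, and a fold change is on the log2 scale. The fit was tested on simulated data. Coordinates and promoters are from RefSeq, GRCm38.p6 (the build of mm10), with all 34 members matched and promoters for 29. Exon overlaps are from GENCODE M21.

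The members, lists, tests and settings were chosen with earlier results of these data known. Every member is accounted for. Library values are given for Cpt1a, Cpt2, Slc25a20, Acadvl, Acadm, Hadha, Hadhb, Acsl1, Acsl4, Acsl5 and Ppard and for the 3 members with the smallest p in each comparison. Of the 9 other lists, the gene with the smallest p is named. The alternatives were DESeq2 size factors, upper-quartile scaling, no low-count filter, at least 1 CPM in 6 libraries, DESeq2 1.42.0, limma voom with sample quality weights (limma 3.58.1), a replicate block, fits to only the groups compared and leaving out each library. Chosen after seeing the data were no robust estimation, a Y-linked covariate and leaving out the 3 libraries together on the first component. P-values of the main fit set each difference between groups of 3 mice against the spread within groups, estimated over all 12 libraries.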

Additional observations from a re-analysis of the deposited data

How the results depend on the processing

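The count of members called was 0 in each pairwise comparison under the main settings and 23 alternatives, and in the interaction under 22, since a fit to only the groups compared was not made for it, and the smallest adjusted p of any member was 0.0524. Under DESeq2's Wald test an unadjusted p under 0.05 was reached by 2, 1, 4, 3 and 1 members in the order of the report, and under limma voom by 5, 3, 5, 6 and 1. When 1 library was left out, the median log2 fold change of the members ran from 0.03 to 0.14 in cKO against WT with vehicle, 0.00 to 0.08 in DMαKG against vehicle in WT, -0.06 to 0.09 in DMαKG against vehicle in cKO, 0.00 to 0.14 in cKO against WT with DMαKG and -0.13 to 0.05 in the interaction. Leaving out cKO DMαKG replicate 2 gave 0.09, 0.14 and 0.05 in the last 3, and leaving out cKO vehicle replicate 4 gave 0.04 in the interaction; the cause was not tested. The Cpt1a difference of 0.07 for DMαKG against vehicle in WT ran from -0.12 to 0.31 when 1 library was left out. It took the other sign in the absence of replicate 3 of WT vehicle (-0.12) and of replicate 2 of WT DMαKG (-0.09), and the cause was not tested. No other fold change given for a member turned its direction where it was recomputed; those of the genes outside the list were not recomputed. Same-numbered libraries did not pair consistently: their deviations from the group means correlated at -0.28 to 0.47. The value of 0.47 was for replicate 4 of WT vehicle and of cKO vehicle, each the best match of the other across genotypes with vehicle. With the replicate number as a block, 0 members were called in every comparison, and the log2 fold change for DMαKG against vehicle in cKO was -0.75 for Cpt1a, -0.53 for Cpt2 and -0.62 for Crat. The median SE of a log2 fold change was 0.15 for the members in each pairwise comparison, which with 3 mice a group limits the precision.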
